A study of Mus musculus with 7 samples.

Results

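Cardiac macrophages were taken from the cell annotation of a single cell RNA-seq map of the developing mouse heart. The members were the cells named macrophages in the last annotation of each wild type table, after cells that the annotation had set aside for exclusion were dropped. There were 2196 macrophages, 1033 from CD1 and 1163 from C57BL/6 hearts, among 25744 non-myocytes and 52881 wild type cells, and the tables of the whole series listed 76801 cells. Macrophages are the resident phagocytes of the heart. The first of them seed the embryonic organ from the yolk sac, and later waves come from fetal liver and blood monocytes. They clear dying cells, take part in vessel and valve growth and are replaced or renewed at different rates in different places. C1qa, a chain of the complement component C1q, and Csf1r, the receptor for colony stimulating factor 1, are their usual markers. The tables analysed here held 1 line per cell and no expression of single genes, so the name was not checked against these markers.

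The CD1 hearts covered 18 stages from E9.5 to P9 and the C57BL/6 hearts 17 stages from E10.5 to P9, and both groups were wild type. At each stage several hearts were pooled and cut into 4 zones, the atria (LA on the left and RA on the right) and the ventricles (LV on the left and RV on the right). The atrioventricular canal and ventricular septum went with the LV, and postnatal ventricular cells passed an additional strainer. Each stage and zone was counted as 1 sample, which gave 72 CD1 and 68 C57BL/6 samples. They were run in 3 CD1 and 2 C57BL/6 experiments. In CD1 the stages P1 and P2 were each run in 2 experiments, and their cells were merged by stage and zone. The experiments are named here by the stages that they covered (E18_P1, E9.5_P3 and P2_P9 for CD1, E10.5_P4 and P5_P9 for C57BL/6). The strains were never run together, so strain and experiment cannot be told apart. Mutant Wt1 and Tbx18 hearts were not analysed here because their annotation was not divided into macrophages.

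Most macrophages formed a single cluster in each strain. In CD1, 1020 macrophages were in cluster 8, of which they made up 97.7%, and 13 were in cluster 25. In C57BL/6, 1085 were in cluster 9, of which they made up 96.2%, and 78 were in cluster 22, where 149 other immune cells were also found. Of these 1163 C57BL/6 macrophages, 113 had been marked by the authors at an earlier step as immune cells of unsure kind. A macrophage carried a median of 8340 UMIs (unique molecular identifiers, which count captured transcripts) and 2587 detected genes in CD1 and 8716 UMIs and 2654 genes in C57BL/6. The cells of these samples ranged from 2000 UMIs upward, and single macrophages held 2017 to 54817 UMIs. Only 2 CD1 macrophages, and no C57BL/6 macrophage, shared a cell barcode with a macrophage of another library.

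The first macrophages were seen at E10.5 in both strains. None were found among 182 non-myocytes of the CD1 hearts at E9.5, which allows a share of up to 1.65%. At E10.5 a single CD1 macrophage was found, in the LA, among 275 non-myocytes (0.364%, exact 95% binomial interval 0.00921% to 2.01%). This cell had 29667 UMIs and a doublet score that 9.72% of CD1 cells reached or exceeded. With the cells of the highest 10% of doublet scores left out, the first CD1 macrophages were those of E11.5. At E11.5 there were 8 macrophages, with 6 in the RA and 1 each in the LV and RV. None were seen among 58 non-myocytes of the LA, which allows up to 5.17%. By E12.5 all 4 CD1 zones held macrophages at nearly the same share, with 8.11% in the LA, 7.59% in the RA, 7.92% in the LV and 8.48% in the RV. The step from 1.79% at E11.5 (interval 0.778% to 3.50%) to 8.12% at E12.5 (interval 5.58% to 11.3%) was larger than the counting error of the pooled shares. These intervals cover counting error only, and at these early stages there was 1 pool of hearts per stage and zone.

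The C57BL/6 hearts already held 11 macrophages at E10.5, their earliest stage, with 6 in the LV, 3 in the RV and 2 in the RA. They made up 3.32% of 331 non-myocytes (interval 1.67% to 5.87%). At E11.5 the number was 6, and the mean share over the zones was at its lowest, 2.64% ± 2.08 (SD, n = 4 zones). Of these early cells, 8 of 11 at E10.5 and 3 of 6 at E11.5 were of the kind marked unsure. With those cells left out, E10.5 was still the first stage with a macrophage. Blood cells were 38.4% and 55.8% of the C57BL/6 non-myocytes at E10.5 and E11.5, against at most 5.82% at any later stage. Without blood cells the macrophage share at E10.5 was 5.39% (interval 2.72% to 9.44%) and at E11.5 it was 6.90% (interval 2.57% to 14.4%), over all zones pooled. Over zones with at least 10 cells left, the means without blood cells were 9.56% and 10.0%, against 3.40% and 2.64% with them. In CD1, blood cells were 48.9%, 58.9% and 25.8% of non-myocytes at E9.5, E10.5 and E11.5, and at most 2.62% later. Without them the CD1 shares were 0.885% at E10.5 and 2.42% at E11.5.

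The macrophage share of non-myocytes was higher from E15.5 to E17.5 than at the first stages in both strains, and was lower at the last embryonic stage. In CD1 that stage, E18, came only from experiment E18_P1, so stage and experiment cannot be told apart there. In C57BL/6 the intervals of the pooled shares overlapped, with 6.05% to 9.45% at E17.5 and 3.64% to 7.01% at E18.5. In CD1 the mean share over zones was 0.694% ± 0.917 (SD, n = 3 stages) from E9.5 to E11.5, 8.24% ± 0.475 (n = 3) from E12.5 to E14.5 and 13.7% ± 2.89 (n = 3) from E15.5 to E17.5, and at E18 it was 3.36%. It was 12.4% ± 3.36 (n = 4) from P0 to P3 and 10.6% ± 3.21 (n = 4) from P4 to P9, which overlapped with the range before birth. In C57BL/6 the means of the embryonic bands were 3.02% ± 0.537 (n = 2), 5.93% ± 1.34 (n = 3) and 9.38% ± 1.76 (n = 3), and the last of these bands fell from 11.2% at E15.5 to 9.24% at E16.5 and 7.69% at E17.5. The C57BL/6 share was 5.69% at E18.5, 12.04% ± 3.16 (n = 3) from P1 to P3 and 9.19% ± 2.16 (n = 5) from P4 to P9. The CD1 share was highest at P3 with 16.9% ± 7.83 (SD, n = 4 zones), near the 16.6% ± 6.59 of E17.5, and lowest at E9.5. The C57BL/6 share was highest at P2 with 14.1% ± 6.76 (n = 4 zones) and next at P3 with 13.6% ± 8.52. At these peaks the zones of 1 stage spread widely, from 12% to 28.5% at P3 in CD1 and between 5.38% and 21.7% at P2 in C57BL/6. A share cannot tell more macrophages from fewer of the other non-myocytes.

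**Figure D1:**
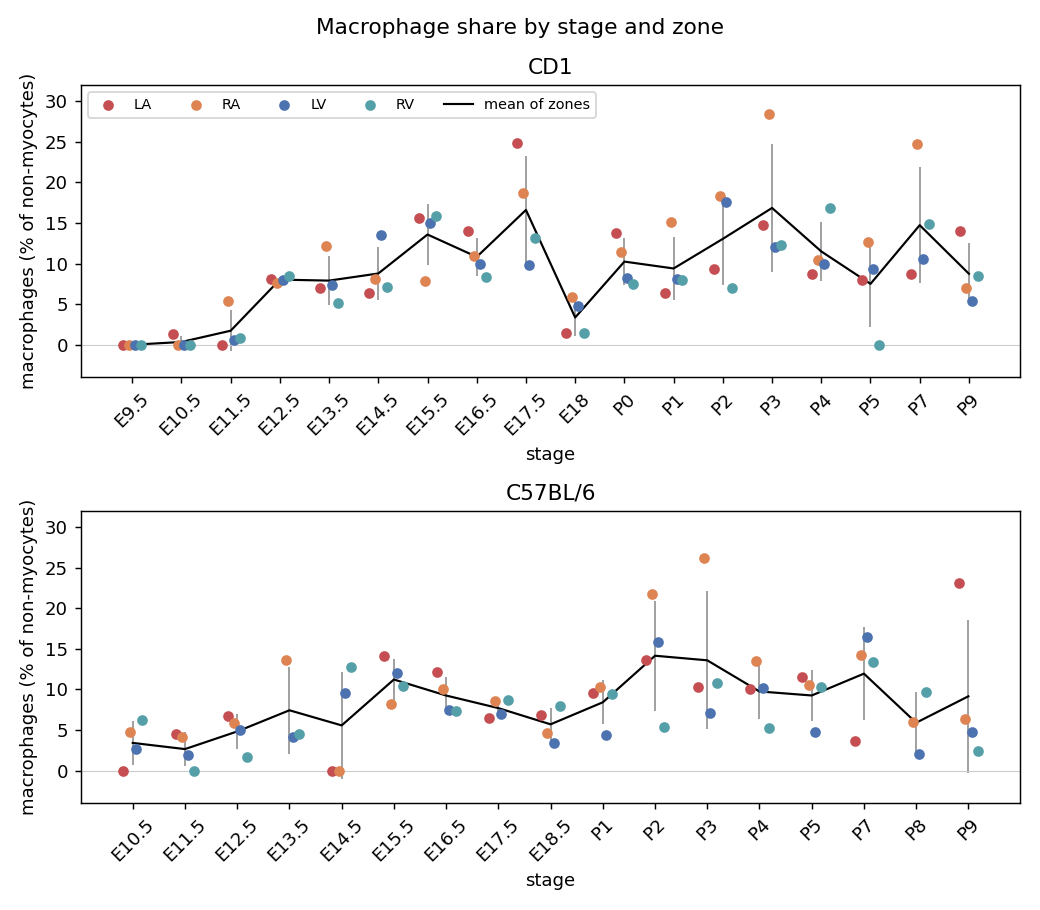
Macrophages as a percentage of non-myocytes (y axis) at each stage (x axis) in CD1 (top) and C57BL/6 (bottom). Each point is 1 stage and zone with at least 10 non-myocytes, the black line is the mean of the zones and the grey bars are 1 SD over zones. The CD1 mean goes from 0% at E9.5 to 16.6% at E17.5, is 3.36% at E18 and peaks at 16.9% at P3. The CD1 samples of E18 came only from experiment E18_P1. The C57BL/6 mean goes from 2.64% at E11.5 to 11.2% at E15.5, 5.69% at E18.5 and 14.1% at P2.

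The relation of the share with stage was tested over stages, with 1 mean of the zones per stage. The CD1 share rose over 18 stages with a Spearman's rho of 0.540 (permutation p = 0.0223, and 0.0223 after adjustment over 2 relations). Pearson's r of the same values came to 0.594 (permutation p = 0.00993, and 0.0166 after adjustment). The C57BL/6 share rose over 17 stages with a rho of 0.615 (permutation p = 0.0103, and 0.0205 after adjustment), where r came to 0.575 (permutation p = 0.0166, and 0.0166 after adjustment). Without the 2 stages farthest from the middle of the series r was 0.578 in CD1 and 0.527 in C57BL/6. Within the experiments that crossed birth the order was closer, with a rho of 0.874 over 13 stages of E9.5_P3 (permutation p = 0.00032) and 0.808 over 13 stages of E10.5_P4 (permutation p = 0.00125). The late experiments held too few stages for a trend, with rho of −0.500 over 5 stages of P2_P9 (exact permutation p = 0.450) and −0.600 over 4 stages of P5_P9 (exact permutation p = 0.417). The rise in C57BL/6 depended on the blood cells in the denominator. Without them rho fell to 0.108 (permutation p = 0.679) over all stages and was 0.308 (permutation p = 0.307) within E10.5_P4, whereas in CD1 it was 0.539 (permutation p = 0.0224).

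The mean share was higher after birth than before it in both strains, and the difference passed the test in C57BL/6. The CD1 share was 11.5% ± 3.19 over 8 neonatal stages and 7.12% ± 5.67 over 10 embryonic stages, a difference of 4.39 percentage points that did not pass the exact permutation test (p = 0.0701). The C57BL/6 share was 10.3% ± 2.78 over 8 neonatal and 6.41% ± 2.76 over 9 embryonic stages, a difference of 3.85 percentage points (exact permutation p = 0.0135). Without blood cells the C57BL/6 difference was 1.98 percentage points (exact permutation p = 0.101). Within E9.5_P3 and E10.5_P4 alone the differences were 5.12 (exact permutation p = 0.140) and 5.06 percentage points (exact permutation p = 0.0140). Over 16 matched stages the CD1 share averaged 9.56% and the C57BL/6 share 8.37%, and CD1 was higher at 10 stages and lower at 6 (difference 1.19 ± 2.93 percentage points, sign-flip permutation p = 0.118). The greatest gap was at E17.5, with 16.6% in CD1 and 7.69% in C57BL/6. With the C57BL/6 cells of unsure kind left out, the difference was 2.22 percentage points (sign-flip permutation p = 0.0047). No CD1 macrophage carried that mark, so this setting takes macrophages from C57BL/6 alone and a larger difference was built into it. Without experiment E9.5_P3 the difference was −0.105 (sign-flip permutation p = 0.906, n = 7 stages).

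The CD1 hearts at E18 stood apart from their neighbours. Their zones held 1.47% (LA), 5.85% (RA), 4.73% (LV) and 1.41% (RV) macrophages, below every zone at E17.5, where the shares ran from 9.82% in the LV to 24.8% in the LA. E18 came only from experiment E18_P1, which also held a set of P1 samples. At P1 the shares of that experiment were 2.56% (LA), 9.30% (RA), 7.60% (LV) and 6.98% (RV), and those of E9.5_P3 were 9.63%, 20.7%, 10.3% and 9.38%. All 4 zones were thus lower in E18_P1 at the same stage, with zone means of 6.61% and 12.5%. At P2, the other stage run more than once, the mean was 11.02% in E9.5_P3 and 15.1% in P2_P9, and RA, LA and RV were higher in P2_P9 while LV was lower. Leaving out E18_P1 gave a rho of the CD1 share with stage of 0.559 (permutation p = 0.021). The C57BL/6 share at E18.5, a stage of the same experiment as its neighbours, was 5.69% ± 2.05 (n = 4 zones), against 7.69% ± 1.14 at E17.5 and 8.40% ± 2.69 at P1. Across chip wells, each of which took cells of all samples of its experiment, the share ranged from 8.89% to 11.97% over the 5 wells of E9.5_P3 and from 7.08% to 7.79% over the 4 of E10.5_P4, against pooled shares of 4.96%, 10.3% and 12.7% in the 3 CD1 experiments.

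The atria tended to hold a larger share of macrophages than the ventricles in both strains, although the difference did not pass the test after adjustment. In CD1 the atrial mean was 10.2% and the ventricular mean 7.93%, and the atria were higher at 13 of 18 stages and lower at 4 (difference 2.28 ± 3.90 percentage points, sign-flip permutation p = 0.0230, adjusted p = 0.138 over 6 zone differences). In C57BL/6 the means were 9.43% and 7.19%, and the atria were higher at 12 of 17 stages (difference 2.24 ± 5.57 percentage points, sign-flip permutation p = 0.116, adjusted p = 0.318). Within experiments the difference was 2.02 percentage points in E9.5_P3 (sign-flip permutation p = 0.156, 13 stages), 3.20 in P2_P9 (exact sign-flip permutation p = 0.188, 5 stages), 2.24 in E10.5_P4 (sign-flip permutation p = 0.159, 13 stages) and 2.23 in P5_P9 (exact sign-flip permutation p = 0.625, 4 stages). With all cells as the denominator, cardiomyocytes included, the CD1 difference was 0.609 percentage points (sign-flip permutation p = 0.272). In C57BL/6, where LA samples at E10.5, E12.5 and E14.5 and the RA sample at E14.5 held 10 to 18 non-myocytes, requiring at least 20 non-myocytes raised the difference to 3.20 percentage points (sign-flip permutation p = 0.00873, n = 16 stages).

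**Figure D2:**
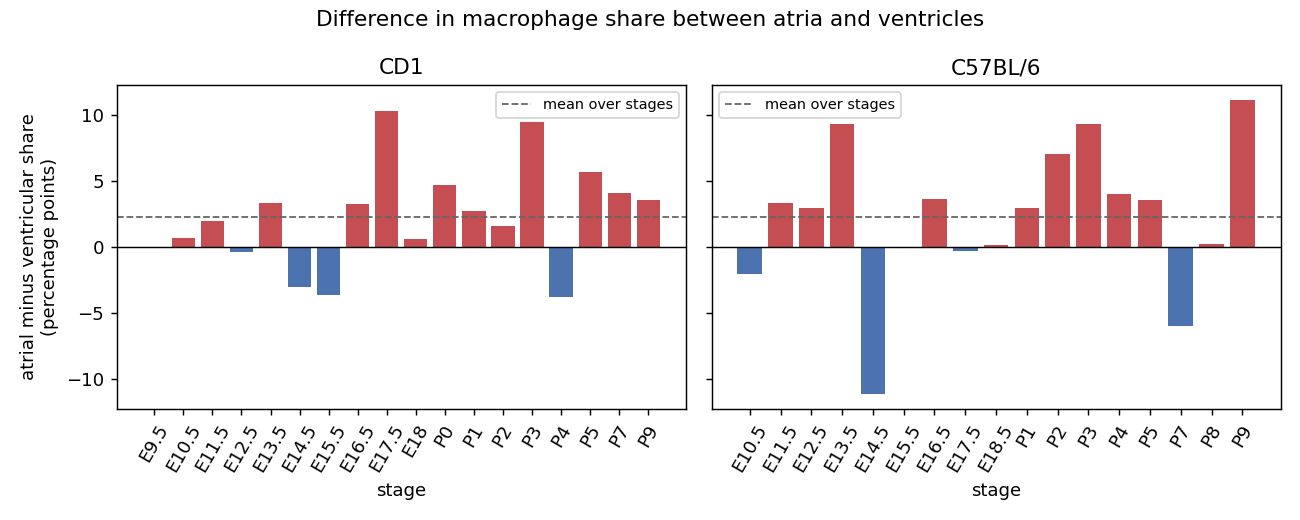
Mean atrial share minus mean ventricular share of macrophages, in percentage points (y axis), at each stage (x axis) of CD1 (left) and C57BL/6 (right), with red bars where the atria were higher and blue bars where the ventricles were. The dashed line is the mean over stages, 2.28 in CD1 and 2.24 in C57BL/6, and the bars reach from −3.82 to 10.3 in CD1 and from −11.1 to 11.1 in C57BL/6.

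The highest single samples were atrial. The RA at P3 held 28.5% macrophages in CD1 (35 of 123 non-myocytes, interval 20.7% to 37.3%) and 26.1% in C57BL/6 (70 of 268, interval 21.0% to 31.8%). In each strain this was the highest of all samples with at least 10 non-myocytes. Over stages the RA averaged 11.4% ± 7.55 (SD, n = 18), the LA 9.03% ± 6.41, the LV 8.34% ± 4.87 and the RV 7.51% ± 5.54 in CD1. In C57BL/6 the RA averaged 9.92% ± 6.53 (n = 17), the LA 8.83% ± 5.93 (n = 15), the RV 7.41% ± 3.82 (n = 17) and the LV 6.97% ± 4.49 (n = 17). These SDs over stages also hold the change of the share with stage. Of the single zones, only LA with RA and LV with RV were compared within stages, and neither difference passed the test. LA minus RA was −2.35 ± 6.74 percentage points in CD1 (sign-flip permutation p = 0.159, adjusted p = 0.318) and −1.11 ± 7.45 in C57BL/6 (sign-flip permutation p = 0.578, adjusted p = 0.694). The LV differed from the RV by 0.828 ± 4.42 percentage points in CD1 (sign-flip permutation p = 0.443, adjusted p = 0.664) and by −0.440 ± 4.59 in C57BL/6 (sign-flip permutation p = 0.700, adjusted p = 0.700).

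Macrophages were the bulk of the annotated immune cells at nearly all stages. They made up 88.1% of 1173 immune cells in CD1 (interval 86.1% to 89.9%) and 85.8% of 1355 in C57BL/6 (interval 83.9% to 87.6%). Lymphocytes (T, B and natural killer cells) were annotated only in CD1, and neutrophils and dendritic cells in both strains. The lowest CD1 share after E11.5 was 50.9% at P9, with 28 macrophages among 55 immune cells. The lowest C57BL/6 share was 66.7% at P2, with 52 of 78. At E10.5 and E11.5 every annotated immune cell of C57BL/6 was named a macrophage, 11 and 6 cells. Of these, 8 and 3 were of the kind marked unsure.

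The early macrophages carried more UMIs per cell than the later ones. The median macrophage of CD1 had 20534 UMIs at E11.5, 16610 at E12.5 and 10428 at E13.5, and in the same experiment 6755 at E16.5, 6811 at E17.5 and 6025 at P3. In C57BL/6 it had 19267 UMIs at E10.5, 22870 at E11.5, 20737 at E12.5 and 15503 at E13.5, and between 6127 at P2 and 11302 at E18.5 from E14.5 on. The median of detected genes in CD1 was 4396 at E11.5, 2156 at P3, 3344 at P4 and 2738 at P9, and its relation with stage did not pass the test (rho −0.315, permutation p = 0.237, adjusted p = 0.396). In C57BL/6 the medians were 4466 at E11.5, 2068 at P2 and 2335 at P9. In C57BL/6 the UMI count fell with stage (rho −0.838, permutation p = 8e-05, adjusted p = 0.00024, and r −0.786, permutation p = 4e-05, n = 17 stages), and r was −0.767 without the 2 farthest stages. Detected genes of C57BL/6 fell with a rho of −0.841 (permutation p = 6e-05, adjusted p = 0.00024, and r −0.813). In CD1 the pooled relation of UMI count did not pass the test (rho −0.235, permutation p = 0.379, adjusted p = 0.455, and r −0.447, permutation p = 0.0816, n = 16 stages), and the experiments differed in depth. Macrophages had a median of 7110 UMIs in E9.5_P3, 8505 in E18_P1 and 11018 in P2_P9. Within E9.5_P3 the UMI count fell with a rho of −0.927 (permutation p = 0.00016, r −0.838, n = 11 stages), and within E10.5_P4 of C57BL/6 with a rho of −0.835 (permutation p = 0.00058, n = 13 stages).

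The UMI count of the cells captured with them also fell at the early stages, but by less. The median of the other non-myocytes was 13786 at E11.5 and 9072 at E13.5 in CD1. In C57BL/6 it was 12512 at E11.5 and 8801 at E17.5. At E12.5 the median macrophage had 1.62 times the UMIs of the median other non-myocyte in CD1 (16610 and 10235) and 1.83 times in C57BL/6 (20737 and 11304). At E14.5 the ratios were 1.04 and 1.05. At P7 they were 0.683 (9953 and 14572) and 0.754 (6452 and 8554). In CD1 the macrophage median was the higher at 4 of 16 stages, E11.5 to E14.5, and the lower at every later stage. In C57BL/6 it was the higher at each stage from E10.5 to E14.5 and also at E18.5 (11302 and 10380) and P3 (8648 and 8624). Macrophage minus other median fell with stage in both strains, with a rho of −0.794 in CD1 (permutation p = 0.00043, r −0.785) and −0.765 in C57BL/6 (permutation p = 0.00046, r −0.765). Within E9.5_P3 rho was −0.936 (permutation p = 1e-04, n = 11 stages) and within E10.5_P4 it was −0.725 (permutation p = 0.00657, n = 13 stages). These relations of the difference with stage were added after the data were seen. Averaged over all stages, the difference was −1307 ± 3566 UMIs in CD1 (sign-flip permutation p = 0.162, adjusted p = 0.256) and 1122 ± 4043 in C57BL/6 (sign-flip permutation p = 0.282, adjusted p = 0.339).

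**Figure D3:**
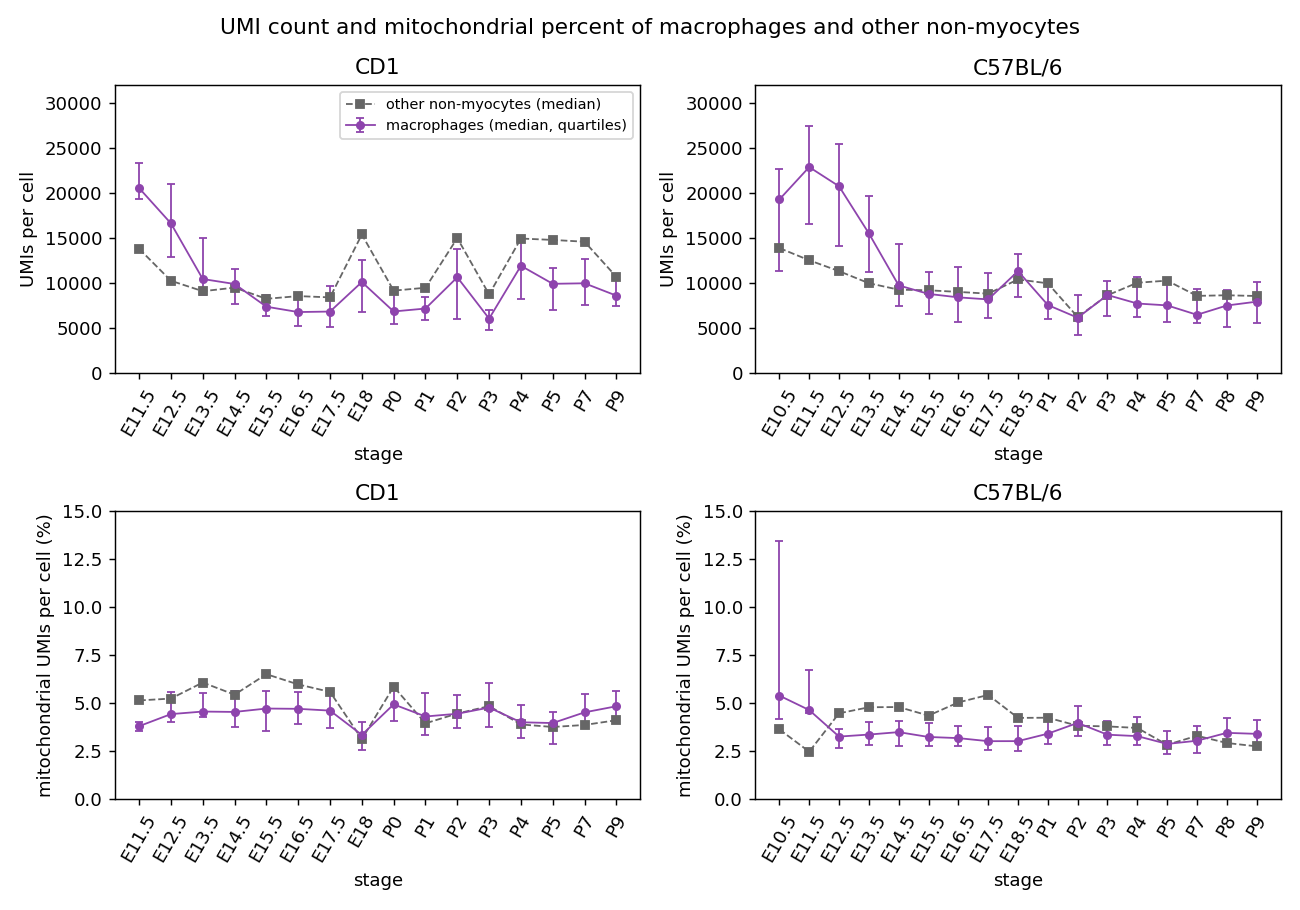
Median UMIs per cell (top) and median percent of UMIs from mitochondrial genes (bottom) by stage in CD1 (left) and C57BL/6 (right), for stages with at least 5 macrophages. Purple points with bars are macrophages with their quartiles, and grey squares are the other non-myocytes of the same stage. Macrophages lie above the other cells in UMIs at E11.5 and E12.5 (20534 against 13786 at E11.5 in CD1) and below them from E15.5 on in CD1.

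Macrophages had fewer detected genes than the other non-myocytes in CD1, with medians of 2833 and 3331 averaged over stages (difference −498 ± 614 genes, lower at 14 of 16 stages, sign-flip permutation p = 0.00781, adjusted p = 0.0469). In C57BL/6 the averages were 2882 and 2886 (difference −3.74 ± 905, sign-flip permutation p = 0.988, adjusted p = 0.988), although macrophages were lower at 13 of 17 stages. Depth was also bounded by keeping only cells of 5000 to 10000 UMIs on both sides. The UMI counts of macrophages and other cells inside this window were not compared. The part of any remaining depth difference in the gene difference was therefore not tested. Among the cells of this window, macrophages had fewer detected genes at every stage compared. There they had 2414 against 2706 genes in CD1 (difference −291 ± 118, 14 of 14 stages, sign-flip permutation p = 0.000122, the smallest that this number of stages can give) and 2394 against 2668 in C57BL/6 (difference −274 ± 120, 15 of 15 stages, sign-flip permutation p = 6.1e-05, again the smallest possible). The median doublet score of macrophages, 0.074 in CD1 and 0.0586 in C57BL/6, was below that of the other non-myocytes, 0.134 and 0.171.

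Among stages with at least 5 macrophages, the mitochondrial percent of CD1 macrophages was below that of the other non-myocytes at every embryonic stage but E18. It was nearer to it or above it after P0. It was 3.77% at E11.5 and 4.69% at E15.5, against 5.11% and 6.48% in the other non-myocytes, and 4.49% at P7 against 3.84%. Averaged over stages it was 4.38% and 4.84% (difference −0.458 ± 0.817 percentage points, sign-flip permutation p = 0.0424, adjusted p = 0.127). Relative to fibroblast-like cells alone, macrophages were higher by 0.477 percentage points (sign-flip permutation p = 0.0247), and relative to ECs (vascular and endocardial endothelial cells) they differed by −1.77 (sign-flip permutation p = 0.000336). Macrophages of C57BL/6 were above the other cells at E10.5 (5.37% and 3.61%) and E11.5 (4.61% and 2.44%), where blood cells, with a median of 1.69%, were abundant. From E12.5 to P1 they were lower at each stage, as with 2.99% against 5.40% at E17.5. The C57BL/6 difference over all stages was −0.423 ± 1.22 percentage points (sign-flip permutation p = 0.171, adjusted p = 0.256), and without blood cells it was −0.743 (sign-flip permutation p = 0.00691). The relation of the macrophage percent itself with stage did not pass the test in either strain (CD1 rho 0.115, permutation p = 0.671, adjusted p = 0.671, and C57BL/6 rho −0.287, permutation p = 0.264, adjusted p = 0.396), but within E9.5_P3 it rose with a rho of 0.900 (permutation p = 0.0004, n = 11 stages). The experiments of CD1 differed in this measure, with macrophage medians of 4.74% in E9.5_P3, 3.59% in E18_P1 and 4.29% in P2_P9.

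The authors had divided the macrophages further, into 7 sub-clusters in CD1 and 9 in C57BL/6. Sub-clusters were made separately in each strain, so a number in 1 strain is not the same group in the other, and they are described without a test because the genes of these cells defined them. The earliest cells fell into few of them. All 9 CD1 macrophages of E10.5 and E11.5 were in sub-clusters 3 and 5, 4 and 5 cells. These were also the CD1 groups with the most UMIs, at medians of 13834 and 12816. Their median doublet scores, 0.129 and 0.125, were the highest as well, with 0.0467 to 0.0790 in the other CD1 sub-clusters. In C57BL/6, 11 of the 17 macrophages of E10.5 and E11.5 were in sub-cluster 9, which had a median of 16238 UMIs and the highest ribosomal protein percent, 23.6%. Of its 67 cells, 50 were embryonic (74.6%, against 45.1% of all C57BL/6 macrophages), and all 67 had been marked unsure by the authors. CD1 sub-cluster 0 was first seen at E14.5 and sub-cluster 6 at E15.5, and 140 and 49 of their 210 and 69 cells were neonatal. Embryonic cells were 33.3% and 29.0% of these sub-clusters, against 41.9% of all CD1 macrophages.

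The zones were not alike in their sub-clusters. In CD1, 60 of the 69 cells of sub-cluster 6 came from the RA, 5 from the LA, 4 from the LV and 0 of 154 macrophages from the RV, which allows up to 1.95%. At the 11 stages at which LA and RA both had at least 5 macrophages, sub-cluster 6 was the larger in the RA at 9 and in the LA at 0. CD1 sub-cluster 1 went the other way, with 29.2% of LA, 24.8% of LV and 27.3% of RV macrophages but 7.09% of RA macrophages, and was the larger in the LA at 10 of 11 stages. CD1 sub-cluster 4 was mostly ventricular, with 24.4% of LV and 28.6% of RV macrophages against 6.06% of LA and 5.51% of RA macrophages, and was the larger in the ventricles at 12 of 14 stages. The RA stood apart again in C57BL/6. Sub-cluster 1 held 34.0% of RA macrophages and 7.44%, 9.005% and 8.76% of those in the LA, LV and RV. It was larger in the RA at 9 of 10 stages and in the LA at 0, and larger in the atria together than in the ventricles at 11 of 11 stages. Sub-cluster 3 held 2 of 379 RA macrophages (0.528%) but 21.5% of LA, 11.4% of LV and 21.1% of RV macrophages, and was the larger in the LA at 10 of 10 stages. Sub-cluster 8 likewise had 3 cells in the RA and 42 in the LA.

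**Figure D4:**
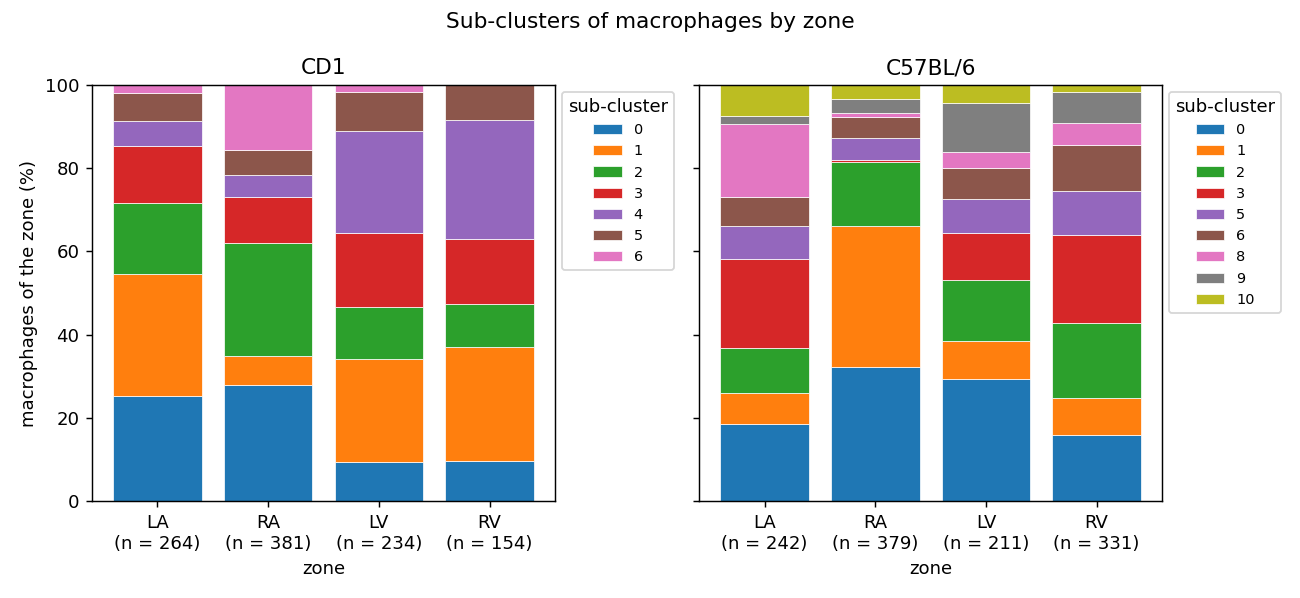
Percent of the macrophages of each zone (y axis) in each sub-cluster (colours) for the LA, RA, LV and RV (x axis) in CD1 (left) and C57BL/6 (right), with all stages together and the number of macrophages under each bar. The RA bars differ from the others in both strains, with CD1 sub-cluster 6 at 15.7% and C57BL/6 sub-cluster 1 at 34.0%, and CD1 sub-cluster 4 is largest in the ventricles.

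These zone patterns were seen within single experiments. CD1 sub-cluster 6 was larger in the RA than in the LA at 6 of 7 stages of E9.5_P3 and at 3 of 4 of P2_P9, and larger in the LA at 0. C57BL/6 sub-cluster 3 was larger in the LA at 7 of 7 stages of E10.5_P4 and at 3 of 3 of P5_P9. In the sample with the most C57BL/6 macrophages, the RV at E13.5, there were 146 of them among 3213 non-myocytes, so the RV values of that strain rest in part on this sample. The share of macrophages in a sub-cluster also differed between experiments. C57BL/6 sub-cluster 0 held 20.6% of macrophages in E10.5_P4 and 36.8% in P5_P9, and CD1 sub-cluster 3 held 17.0% in E9.5_P3 and 8.70% in P2_P9, and the part of experiment in these differences was not tested.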

How the data were processed

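Hearts were dissociated, labelled with MULTI-seq barcodes and captured with the 10x Chromium 3' v3 kit. The submitters' processing notes name Cell Ranger (version 3.1.0), Seurat and the genome build GRCm38.p4. The authors demultiplexed samples, removed barcode doublets and low-quality cells, clustered and annotated the cells and deposited 1 table of cells per strain. These deposited tables give UMI counts and detected genes per cell, the percent of UMIs from mitochondrial and ribosomal protein genes, and a doublet score. No doublet caller was run again. Another 92 columns of these 2 tables were not used.

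Macrophage shares were computed per stage and zone over non-myocytes, which include blood cells, for samples with at least 10 non-myocytes. A stage had the mean of its zones. Cell measures were medians per stage with at least 5 macrophages. Permutation tests over stages were two-sided with 100000 resamples, or exact under 10 stages for correlations, for all comparisons before and after birth, and for sign-flips over at most 16 stages. P-values were adjusted by Benjamini-Hochberg within each family of 2 or 6 tests with a threshold of 0.05, and intervals are Clopper-Pearson at 95%. A count of 0 was given the limit of 3 cells of the total. Each stage and zone is 1 pool, apart from P1 and P2 of CD1, where the cells of 2 experiments were merged. Stages therefore stood in for replicates. The tests were tested on simulated data. No gene is named with a value. The rule set for naming stages covered the first with a macrophage and those with the lowest and highest share. Other stages are named as examples outside that rule. The members, lists and tests were chosen with earlier results of these data known. Python (version 3.11.15), numpy (version 2.4.6), scipy (version 1.17.1) and pandas (version 2.3.3) were used.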

Additional observations from a re-analysis of the deposited data

Results flagged for a closer look

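The mean difference between macrophages and the other non-myocytes differed between embryonic and neonatal stages in 6 of 8 comparisons. These took UMI count, detected genes, mitochondrial percent and ribosomal protein percent in the 2 strains. The exact permutation tests over stages were added after the data were seen. They compare the means of the 2 periods and do not place a change at birth. In UMIs the median macrophage was already below the other cells at E15.5, in CD1 (7350 and 8227) and in C57BL/6 (8772 and 9176). In C57BL/6 it was above them again at E18.5 and P3. In CD1 macrophages had a median per stage that differed from that of the other cells by 672 ± 4121 UMIs over 8 embryonic stages and by −3286 ± 1147 over 8 neonatal stages, so that the difference changed by −3958 UMIs (exact permutation p = 0.0126, adjusted p = 0.0201 over 8 tests). In C57BL/6 it went from 3387 ± 4400 over 9 embryonic stages to −1425 ± 1108 over 8 neonatal stages, a change of −4811 UMIs (exact permutation p = 0.00506, adjusted p = 0.0173). The difference in detected genes changed by −687 in CD1 (exact permutation p = 0.0112, adjusted p = 0.0201) and by −992 in C57BL/6 (exact permutation p = 0.0065, adjusted p = 0.0173). The difference in mitochondrial percent changed by 1.18 percentage points in CD1, from −1.05 ± 0.609 to 0.132 ± 0.516 (exact permutation p = 0.00295, adjusted p = 0.0173), and in C57BL/6 by 0.662 percentage points (exact permutation p = 0.278, adjusted p = 0.318). For ribosomal protein percent the C57BL/6 difference went from 2.03 ± 3.27 to −0.953 ± 1.39, a change of −2.98 percentage points (exact permutation p = 0.0186, adjusted p = 0.0248), and the CD1 difference changed by −0.124 (exact permutation p = 0.878, adjusted p = 0.878). In CD1 the stages after P3 came from an experiment in which the other non-myocytes had a median of 15060 UMIs, against 9733 in the experiment that held most of the earlier stages, and the part of this in the change was not tested. In C57BL/6, blood cells were 38.4% and 55.8% of non-myocytes at E10.5 and E11.5. Blood cells had medians of 1590 detected genes and 11.3% ribosomal protein. At those stages macrophages had medians of 4014 and 4466 genes, against 2539 and 1915 in the other non-myocytes. Macrophage ribosomal protein percents were 20.3% and 22.1%, against 16.2% and 12.8%. The part of blood cells in the C57BL/6 changes was not tested. No stage or chip well was flagged as an outlier of its group in share, UMI count, detected genes or mitochondrial percent. There were 20 groups of 4 to 10 values, where chance flags about 1 in 20 groups. In groups this small only a large gap is flagged, and the CD1 share at E18 was still below that of its neighbours.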

How the results depend on the processing

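In 196 of 257 comparisons with an alternative the direction and the side of the 0.05 threshold (unadjusted p) were kept. The Spearman correlation (rho) of the C57BL/6 share with stage lost the threshold without blood cells (0.108), with at least 4000 UMIs and at most 20% mitochondrial (0.451), with at least 20 non-myocytes per sample (0.480), with zones pooled (0.475), in atrial (0.453) or ventricular (0.311) samples, and in LA (0.488), RA (0.468), LV (0.248) or RV (0.333) samples. In CD1 it did so in ventricular (0.458), LV (0.445) and RV (0.437) samples and without E9.5_P3 (0.464). The neonatal minus embryonic difference in share lost the threshold in C57BL/6 without blood cells (1.98) and with the stricter cell filter (2.96). In CD1 it passed with all cells as denominator (6.04), at least 50 non-myocytes (5.09) and zones pooled (5.03). The atrial minus ventricular difference in CD1 lost it with all cells (0.609), at least 50 non-myocytes (2.17), without E9.5_P3 (2.18) and without P2_P9 (1.73), and in C57BL/6 it passed at minima of 20 (3.20) and 50 (2.42). LA minus RA passed in CD1 with all cells (−1.89) and turned in C57BL/6 (0.291), and LV minus RV turned in CD1 with all cells (−0.177) and in C57BL/6 without P5_P9 (0.0102). The strain difference turned with all cells (−0.184) and without E9.5_P3 (−0.105), and passed without E18_P1 (1.64). It also passed without the cells marked unsure (2.22), a setting that takes macrophages from C57BL/6 alone. Without P2_P9 rho with stage in CD1 passed for UMIs (−0.825) and detected genes (−0.867), and the difference in detected genes lost the threshold (−363). The UMI difference in CD1 passed without E9.5_P3 (−4121), with means (−2021), with at least 10 macrophages (−1844) and against fibroblast-like cells (−2500), and in C57BL/6 it turned without E10.5_P4 (−1655). Detected genes in C57BL/6 turned without P5_P9 (180 genes), without the highest doublet scores (71 genes) and against ECs (21.4), and passed at 5000 to 10000 UMIs (−274) and without unsure cells (−321). For mitochondrial percent, the CD1 difference turned without E9.5_P3 (0.343) and against fibroblast-like cells (0.477), and lost the threshold at 10 macrophages (−0.399) and with the stricter filter (−0.286). The C57BL/6 difference turned without E10.5_P4 (0.241), and passed with means (−1.19), at 10 macrophages (−0.585), without blood cells (−0.743), with medians within samples (−0.649), against ECs (−2.24) and without unsure cells (−0.756). Its rho with stage turned in CD1 at 10 macrophages (−0.0500), passed there without E9.5_P3 (0.857), and turned in C57BL/6 without unsure cells (0.218). The first CD1 stage moved to embryonic day 11.5 without the highest doublet scores. Single zones, other comparison cells, medians within samples, unsure cells, the RV sample at E13.5, the first stage and the strain difference without E18 and E18.5 (1.43, sign-flip permutation p = 0.0638) were alternatives chosen after seeing the data. The cause of these shifts was not tested.

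Another annotation column for C57BL/6 macrophages was not run because the table used here has none, and LA minus RA without E10.5_P4 had too few stages. The number of cells limits the early stages, with 9 macrophages in CD1 and 17 in C57BL/6 over E10.5 and E11.5 together. No paired analysis by replicate number was made because the zones carry none, and the zone and cell differences were paired by stage.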

Other observations

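The percent of UMIs from ribosomal protein genes also changed along the stages in macrophages. Its stage median fell in C57BL/6 from 22.1% at E11.5 and 21.9% at E12.5 to 16.2% at P9 (rho −0.777, permutation p = 0.00041, r −0.736, permutation p = 0.00107, n = 17 stages, and r −0.714 without the 2 farthest stages). Within E10.5_P4 rho was −0.819 (permutation p = 0.00109, n = 13 stages). In CD1 it fell from 19.7% at E11.5 to 15.2% at P9 (rho −0.562, permutation p = 0.0252, r −0.610, permutation p = 0.0124, n = 16 stages). Without the 2 farthest stages r kept its sign at −0.433 but did not pass the test (permutation p = 0.120, n = 14 stages). The difference from the other non-myocytes averaged over all stages did not pass the test, with 0.210 ± 1.50 percentage points in CD1 (sign-flip permutation p = 0.587) and 0.627 ± 2.93 in C57BL/6 (sign-flip permutation p = 0.431), where macrophages were above the other cells by 2.03 on average over embryonic stages and differed from them by −0.953 over neonatal stages. The embryonic mean of C57BL/6 includes E10.5 and E11.5, where blood cells were abundant among the other cells.

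The macrophage share of immune cells did not pass the permutation test against stage in CD1 (rho −0.326, permutation p = 0.219, r −0.221, permutation p = 0.422, n = 16 stages), and over the 17 C57BL/6 stages it had a rho of −0.438 (permutation p = 0.0815) and an r of −0.501 (permutation p = 0.0392). The gap between atria and ventricles had a rho with stage of 0.432 in CD1 (permutation p = 0.0765, r 0.332, n = 18 stages) and 0.287 in C57BL/6 (permutation p = 0.262, r 0.222, n = 17 stages). These relations were added after the data were seen.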
